A study of Homo sapiens with 8 samples.

Results

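The DLX genes encode homeodomain transcription factors of the distal-less family and lie in the human genome as 3 neighbouring pairs. H3K27me3, a histone mark of gene silencing laid down by Polycomb repressive complex PRC2, was examined around their 6 start sites in MOLM14 cells. The members were the 6 genes DLX1 to DLX6, each placed by a GRCh37 start given to the nearest kb: DLX1 at 172950 kb and DLX2 at 172967 kb of chromosome 2 (band 2q31.1), DLX6 at 96635 kb and DLX5 at 96654 kb of chromosome 7 (7q21.3), and DLX4 at 48047 kb and DLX3 at 48073 kb of chromosome 17 (17q21.33). The starts of a pair are 17, 19 and 26 kb apart in that order. A peak belonged to a gene when it reached within 5 kb or within 50 kb of its start. Of the peaks listed in each library, 1 (DMSO 1), 1 (DMSO 2), 2 (AC220 1) and 3 (AC220 2) reached within 5 kb of any DLX start, and 11, 8, 14 and 12 within 50 kb, out of 104980, 117556, 104566 and 139642 peaks.

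MOLM14 is a single established human acute myeloid leukaemia line with an internal tandem duplication in the receptor tyrosine kinase gene FLT3. Cells received the FLT3 inhibitor quizartinib (AC220), at a dose not given in the sources used here, or DMSO, for 24 h. Each treatment had 2 immunoprecipitated libraries, numbered 1 and 2, and 4 input samples were not analysed here. Drosophila S2 cells had been spiked in, but the deposited lists carry peak positions and scores only, so depth is unknown and amounts of mark per cell were not measured here. The lists numbered 2 covered 2.55 times (DMSO) and 2.59 times (AC220) the length of those numbered 1, so the main comparisons are given within a number as well as pooled. No label says that libraries came from separate cultures, so the p-values cover only how far these libraries differ among themselves, and that spread may be technical.

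PRC2 is known to hold lineage regulators silent in cells of other lineages, often as broad H3K27me3 domains over CpG-rich homeobox loci. DLX1 and DLX2 direct the formation of inhibitory neurons of the forebrain. DLX5 and DLX6 act in the jaw, limb and bone, and DLX3 acts in hair, teeth, skin and placenta. DLX4, the partner of DLX3, is known from placenta. The tissues named here are not of the blood. Whether these genes also act in blood or leukaemia cells was not examined, and no expression was measured here. In this line, no listed H3K27me3 peak lay within 5 kb of the starts of DLX2, DLX4, DLX5 and DLX6. The same held for 56% of 10 kb windows outside centromeric and variable bands.

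RefSeq promoters (GRCh38.p14, 250 bases before to 50 after the start) were matched for 3 of the 6 genes: DLX1, DLX2 and DLX6. They are shown because these starts carry the base composition over which the mark is often found. Each is written 5′ to 3′ with every CG dinucleotide in capitals. Their coordinates are on GRCh38.p14 and cannot be set against the peak positions, which are on GRCh37.
DLX1, plus strand, chr2:172085257-172085556: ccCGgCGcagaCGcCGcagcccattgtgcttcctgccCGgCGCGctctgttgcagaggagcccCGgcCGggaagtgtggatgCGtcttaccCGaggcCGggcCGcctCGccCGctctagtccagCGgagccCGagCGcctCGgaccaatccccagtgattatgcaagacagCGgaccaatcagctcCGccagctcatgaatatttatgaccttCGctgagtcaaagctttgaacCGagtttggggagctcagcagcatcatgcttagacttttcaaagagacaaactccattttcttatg
DLX2, minus strand, chr2:172102851-172103150: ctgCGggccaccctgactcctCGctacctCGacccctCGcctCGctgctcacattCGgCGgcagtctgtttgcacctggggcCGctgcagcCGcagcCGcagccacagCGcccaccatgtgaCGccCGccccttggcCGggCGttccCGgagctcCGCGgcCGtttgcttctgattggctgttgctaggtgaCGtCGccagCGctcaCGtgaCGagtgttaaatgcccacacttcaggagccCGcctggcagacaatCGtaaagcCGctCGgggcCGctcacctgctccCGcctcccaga
DLX6, plus strand, chr7:97005303-97005602: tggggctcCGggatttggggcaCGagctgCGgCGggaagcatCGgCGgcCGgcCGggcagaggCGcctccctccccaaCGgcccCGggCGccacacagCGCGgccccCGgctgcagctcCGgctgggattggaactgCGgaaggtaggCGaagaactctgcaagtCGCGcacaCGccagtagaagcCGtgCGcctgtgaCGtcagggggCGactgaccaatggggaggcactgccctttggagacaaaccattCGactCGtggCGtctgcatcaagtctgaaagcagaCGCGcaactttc

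The DLX1 promoter holds 23 CG dinucleotides, and the DLX2 and DLX6 promoters hold 30 each, against a median of 14 over 35116 promoters. The observed over expected CG ratio was 0.89 in DLX1, 0.90 in DLX2 and 0.89 in DLX6, with a median of 0.579 over all promoters. G and C made up 59% of bases in DLX1, 67.7% in DLX2 and 67% in DLX6, beside a median of 58.7%. All 3 contain CGCG, which reads the same on both strands, as do 49.9% of all promoters. None contains TAATTA, a palindromic homeodomain core found in 4.84% of promoters. By CG count these promoters stood above 64.2% (DLX1) and 77.6% (DLX2 and DLX6) of all promoters.

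For 4 of the 6 genes (DLX2, DLX4, DLX5 and DLX6) no peak lay within 5 kb of the start in any of the 4 libraries. DLX1 had a peak there in AC220 2 alone, and DLX3 had peaks there in all 4 libraries. Such emptiness is common: 56% of the 281188 windows of 10 kb outside centromeric and variable bands held no listed peak in any library. The share of empty DLX starts was thus near that of all windows. A 0 here says that no peak was listed, and how much signal lay below the listing threshold is unknown.

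**Figure D1:**
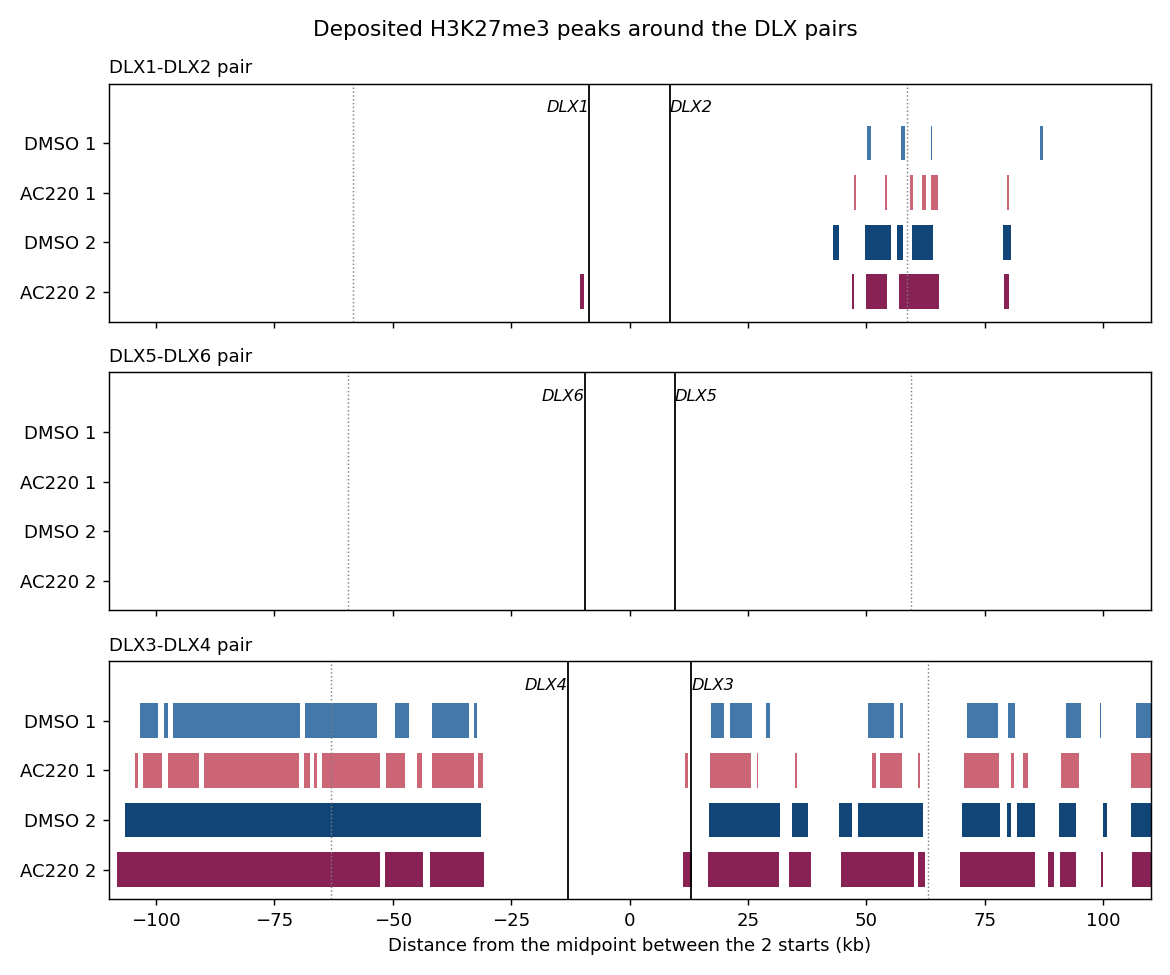
Deposited H3K27me3 peaks (bars) of the 4 libraries by distance in kb from the midpoint between the starts of each DLX pair; solid lines mark the starts and dotted lines the limit of 50 kb beyond them. The DLX5-DLX6 panel is empty, the DLX1-DLX2 panel has peaks on the DLX2 side only except for a single peak of AC220 2, and the DLX3-DLX4 starts lie between marked stretches.

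The pairs were next compared over windows running from 50 kb below the lower start to 50 kb above the upper start (117, 119 and 126 kb). The covered share is the percentage of bases of such a window that lie inside any peak. For DLX3-DLX4 it was 28.1% in DMSO 1, 53.0% in DMSO 2, 32.9% in AC220 1 and 54.2% in AC220 2. For DLX1-DLX2 it was 1.41%, 6.99%, 0.744% and 6.17% in the same order. For DLX5-DLX6 it was 0% in every library. DLX3-DLX4 was thus the covered pair in each library, and the libraries numbered 2 were higher than those numbered 1 for both pairs that had peaks.

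The difference between DLX1-DLX2 and DLX3-DLX4 averaged -38.2 percentage points ± 10.4 (SD, n = 4 libraries; exact sign-flip permutation test, two-sided, p = 0.125), with the same sign in 4 of 4 libraries. DLX5-DLX6 minus DLX3-DLX4 averaged -42.0 ± 13.5 (SD, n = 4; exact p = 0.125). DLX1-DLX2 minus DLX5-DLX6 averaged 3.83 ± 3.20 (SD, n = 4, exact sign-flip p = 0.125). With DLX5-DLX6 at 0% in every library, both differences that involve it are the covered share of the other pair, negative for DLX3-DLX4. Their signs were thus fixed, and so were their p-values. All 3 comparisons had a Benjamini-Hochberg adjusted p of 0.125, which is the smallest p this exact test can give with 4 libraries. The differences from DLX3-DLX4 were larger than their spread over libraries, whereas the third was close to its SD. For the change of each of the 3 differences with treatment, the exact permutation test gave p = 0.667. With 2 libraries against 2 it cannot give less than 0.333, so it could detect no such change. Where DLX5-DLX6 is involved, this change is the treatment difference of the other pair alone.

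**Figure D2:**
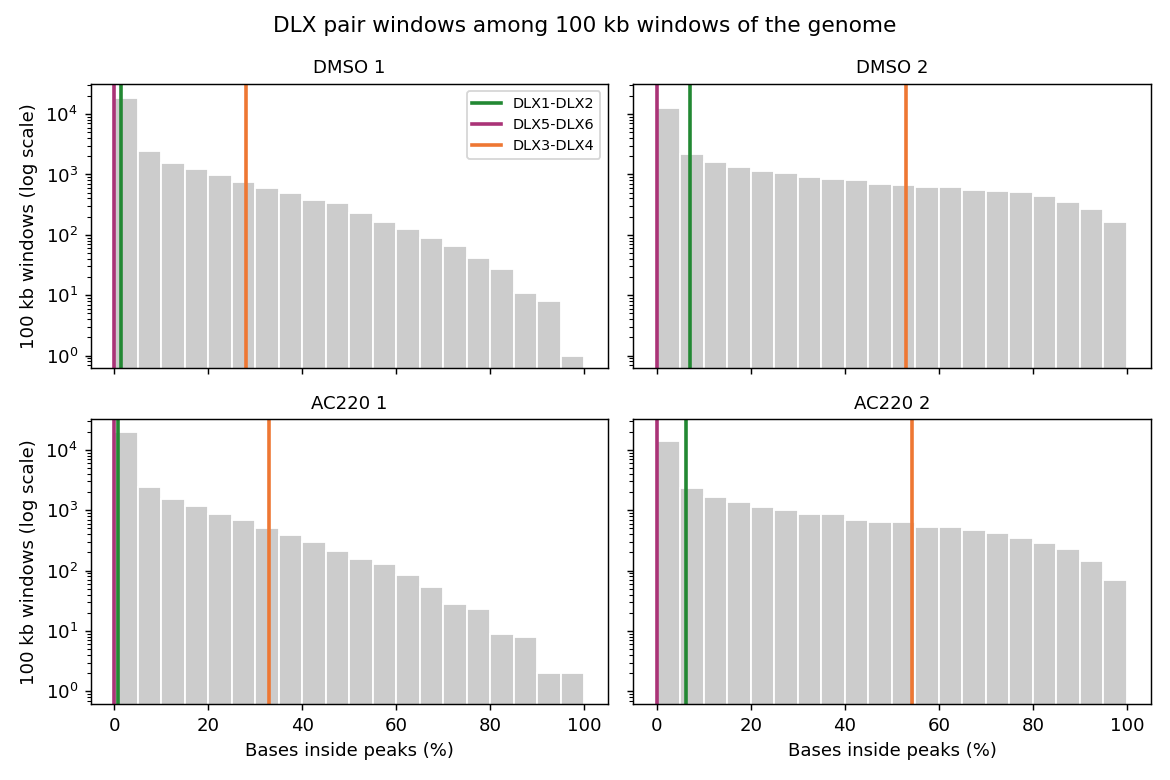
Number of 100 kb windows of the genome (grey bars, log scale) by covered share in percent, for each library, with the DLX pair windows as vertical lines. The DLX5-DLX6 line stands at 0 in every library, DLX1-DLX2 between 0.744% and 6.99%, and DLX3-DLX4 between 28.1% and 54.2%.

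Among 28110 windows of 100 kb, the DLX3-DLX4 share lay above 89.9% of windows in DMSO 1, 84.7% in DMSO 2, 94.3% in AC220 1 and 89.0% in AC220 2. DLX1-DLX2 stood near the middle, above 48.9% to 54.0% of windows. DLX5-DLX6 shared its value of 0 with 45.7%, 29.8%, 47.8% and 31.5% of windows in DMSO 1, DMSO 2, AC220 1 and AC220 2. In all 4 libraries at once, 27.1% of such windows held no peak. An empty 100 kb window was therefore nothing rare in these lists.

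DLX5 and DLX6 lay in the longest stretch without a peak among the 3 pairs. The nearest peak to DLX5 was 169 kb away in DMSO 1, 166 kb in DMSO 2, 174 kb in AC220 1 and 170 kb in AC220 2, each time above the gene. That upper edge varied by 8217 bp over the 4 libraries. The lower edge varied by 864131 bp, since AC220 2 alone listed a peak 233 kb below DLX6 while the other libraries had none for 956 to 1097 kb. The gap between peaks was 1286 kb in DMSO 1, 1142 kb in DMSO 2, 1287 kb in AC220 1 and 422 kb in AC220 2, so the treatments overlapped (exact two-sided permutation p = 1).

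The stretch around DLX5 and DLX6 without a peak in any library ran from 96401653 to 96820200 of chromosome 7, 419 kb. Of 26767 such joint gaps of at least 10 kb, 2.46% were as long or longer, and gaps that long held 16.8% of the bases examined. By protein-coding gene order in RefSeq, SEM1 lies below the pair and SDHAF3 above it; gene positions on GRCh37 were not used here. The rest of 7q21.3 was covered over 6.18% in DMSO 1 and 28.8% in DMSO 2, and over 4.82% in AC220 1 and 19.9% in AC220 2. The absence of peaks at DLX5-DLX6 thus did not extend to its band.

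At DLX1-DLX2 the interval between the starts held no peak in any library. The only peak close to a start was an 839 bp peak of AC220 2 at 172947953 to 172948791 of chromosome 2, which ended 1.21 kb below the DLX1 start. Its deposited -log10 q was 1.05 and its deposited fold 1.92, and only 2.65% of the peaks of that list had a lower -log10 q. DLX1 was thus covered over 8.39% of the 10 kb around its start in AC220 2 and over 0% in DMSO 1, DMSO 2 and AC220 1 (exact permutation p = 1). Within 50 kb of DLX1 the share was 0.839% in AC220 2 and 0% in the other libraries. Without AC220 2 the difference between treatments was 0 at both distances. DLX2 had no peak within 34.4 kb in DMSO 2, 38.9 kb in AC220 1, 41.7 kb in DMSO 1 and 18.2 kb in AC220 2, where the nearest was the same 839 bp peak on the far side of DLX1.

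On the upper side of DLX2, every library listed small peaks starting 34.4 to 41.7 kb from the gene. The first covered base lay at 173008703 in DMSO 1, 173001373 in DMSO 2, 173005940 in AC220 1 and 173005551 in AC220 2. These upper edges spread over 7330 bp, and at them the treatments overlapped. The lower edges spread over 1186320 bp, and in AC220 2 the lower edge was the weak 839 bp peak. The gap between peaks was 1246 kb (DMSO 1), 573 kb (DMSO 2), 547 kb (AC220 1) and 56.8 kb (AC220 2). It was thus shorter with AC220 without overlap (exact two-sided permutation p = 0.333). Of 4613 joint gaps of 30 to 60 kb, as here (52.6 kb), 2.67% were shorter without overlap and 3.43% longer. The 2 peaks of DMSO 1 in the window were 681 and 972 bp wide, and those of AC220 1 were 360 and 511 bp. DMSO 2 listed a peak of 5615 bp and AC220 2 peaks of 4524 and 8408 bp. The strongest was that of 4524 bp in AC220 2 (deposited -log10 q of 3.38, above 95.2% of its list). ITGA6, which encodes a laminin-binding integrin subunit, is the next protein-coding gene on that side.

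Within 50 kb of DLX2 the DMSO libraries averaged 4.91% ± 4.61 and the AC220 libraries 4.04% ± 4.49 (SD, n = 2; exact permutation p = 0.667), a difference of -0.782 percentage points between the libraries numbered 1 and -0.961 between those numbered 2. For the pair window the differences were -0.668 and -0.821. Pooled, the pair window differed by -0.745 percentage points, against SDs of 3.94 (DMSO) and 3.83 (AC220) (n = 2; exact permutation p = 0.667). Windows lower with AC220 in both numbers made up 43.9% of the 20713 windows of 100 kb with a peak, so this direction is the common one. It turned where the longer list of each number was shortened to match the other (0.765 percentage points) and with flanks of 25 or 100 kb (0.626 and 0.623). It turned also without AC220 1 (1.97) or DMSO 2 (2.04), and so did that around DLX2 (2.30 and 2.39). Leaving out a library unbalances the numbers between the treatments, and the lists numbered 2 are the longer ones.

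The rest of band 2q31.1, which textbook maps also assign to the HOXD cluster, was much more covered than the DLX1-DLX2 window: 25.5% in DMSO 1, 44.9% in DMSO 2, 23.1% in AC220 1 and 42.1% in AC220 2. After peaks were joined over gaps of up to 3 kb, the widest stretch of that band was 245 kb in DMSO 1, 342 kb in DMSO 2, 159 kb in AC220 1 and 500 kb in AC220 2. In no library did it lie nearer than 2596 kb to the pair. Broad domains were therefore listed in this band, away from DLX1 and DLX2.

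**Figure D3:**
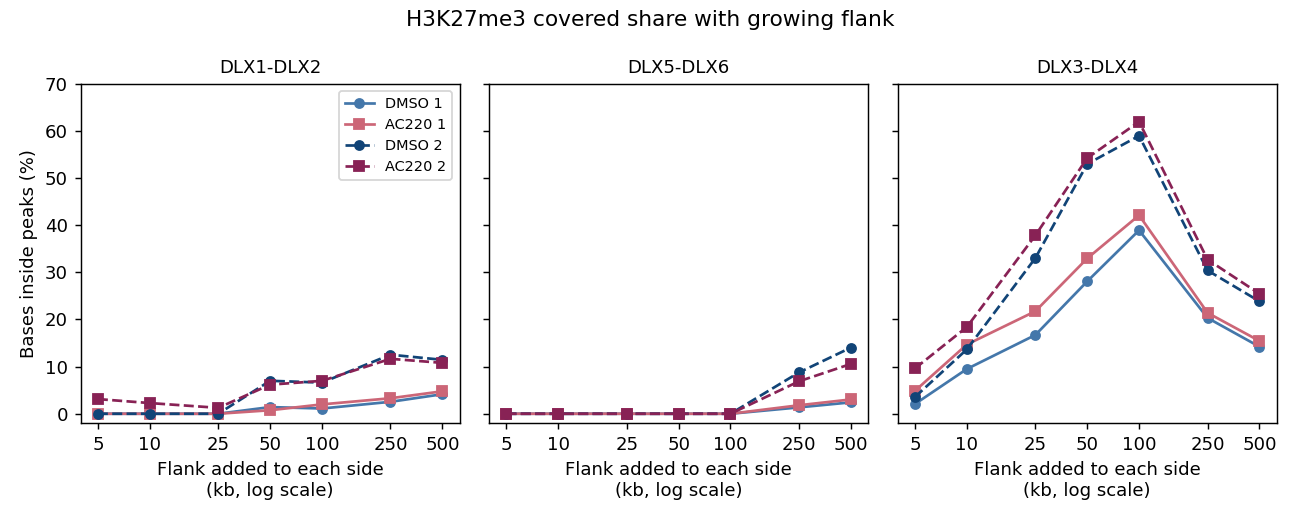
Covered share in percent (vertical axis) of each DLX pair as the flank added to both sides grows from 5 to 500 kb (horizontal axis, log scale); circles are DMSO, squares AC220, solid lines the libraries numbered 1 and dashed lines those numbered 2. DLX5-DLX6 stays at 0 up to 100 kb, while DLX3-DLX4 rises to between 38.9% and 61.9% at 100 kb and is lower again at 500 kb.

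DLX3 and DLX4 sat in a gap between 2 marked stretches, one on each side. With flanks of 100 kb the share around them was 38.9% in DMSO 1, 58.9% in DMSO 2, 42.1% in AC220 1 and 61.9% in AC220 2. With flanks of 500 kb it was 14.2%, 23.8%, 15.4% and 25.4%, and the remainder of 17q21.33 stood, likewise by library, at 10.9%, 20.9%, 10.8% and 21.4%. Listed peaks were thus denser within about 100 kb of this pair than in the band around it. No peak was listed within 5 kb of DLX4 or over most of the interval between the starts.

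The lower stretch ended 19.2 kb below the DLX4 start in DMSO 1, 18.3 kb in DMSO 2, 18.0 kb in AC220 1 and 17.6 kb in AC220 2. The last covered base was at 48027779, 48028703, 48029010 and 48029358 of chromosome 17, a spread of 1579 bp over all 4 libraries. This edge was the most constant of the 6 pair edges examined, where a small peak near DLX3 in the AC220 lists counts as an upper edge. With that peak set aside, the upper stretch began within a narrower range. Behind it, DMSO 2 listed a single peak of 75189 bp (47953515 to 48028703; deposited -log10 q of 4.09, above 95.5% of its list). AC220 2 split the same stretch into 55613, 7841 and 11494 bp. The joined stretch was 75.2 kb in DMSO 2, 77.6 kb in AC220 2 and 73.4 kb in AC220 1, and in these 3 libraries it was the widest of 17q21.33. In DMSO 1 only 9.46 kb were joined up to that edge, and the widest stretch of the band (50.1 kb) ended farther below DLX4, at 48006587. By gene order, TAC4, a tachykinin gene, and KAT7, a histone acetyltransferase gene, come next below DLX4.

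The 50 kb below DLX4 were covered over 42.1% in DMSO 1 and 50.5% in AC220 1, and over 63.4% in DMSO 2 and 59.4% in AC220 2. The direction differed between the numbers, higher with AC220 for number 1 and lower for number 2 (exact permutation p = 1). DLX4 itself, at 0% within 5 kb in every library, had a mean share within 50 kb of 39.2% ± 14.5 in DMSO libraries and 42.8% ± 10.3 in AC220 libraries (SD, n = 2; exact permutation p = 0.667). The difference was 6.58 percentage points between libraries numbered 1 and 0.637 between those numbered 2. It was smaller than the spread between libraries, and it turned without DMSO 1 (-6.61 percentage points) or AC220 2 (-3.645). The numbers are then unbalanced between the treatments.

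Near the DLX3 start the lists of the treatments differed. Within 5 kb of it, 7.44% of bases were covered in DMSO 1, 12.8% in DMSO 2, 17.5% in AC220 1 and 34.6% in AC220 2. Both AC220 libraries stood above both DMSO libraries. The means were 10.1% ± 3.78 with DMSO and 26.0% ± 12.1 with AC220 (SD, n = 2), a difference of 15.9 percentage points (p = 0.333 by the exact permutation test, the smallest two-sided p this design of 2 against 2 can give). Within a number the difference was 10.1 percentage points for the libraries numbered 1 and 21.8 for those numbered 2. Of 124960 windows of 10 kb with a peak in at least 1 library, 1.22% were higher with AC220 without overlap of the groups. Among windows with a mean share of 10 to 30%, as at DLX3, this share was 1.37%. DLX3 was 1 of 6 starts examined, and windows lower without overlap made up 3.25%. Without AC220 2 the difference was 7.39 percentage points, and without AC220 1 it was 24.5. Within 50 kb of DLX3 the shares were 18.1% in DMSO 1, 40.7% in DMSO 2, 21.4% in AC220 1 and 45.0% in AC220 2. At that distance the treatments overlapped (exact permutation p = 0.667). The difference of 3.81 percentage points turned without DMSO 1 (-7.53) or AC220 2 (-7.95), which leaves the numbers unbalanced between the treatments.

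The difference came mostly from a small peak that both AC220 lists held and neither DMSO list did. In AC220 1 it lay at 48071658 to 48072390 (733 bp), ending 0.610 kb below the DLX3 start. In AC220 2 it lay at 48071205 to 48073159 (1955 bp) and included the start as given to the nearest kb. The upper stretch added 273 bp more with AC220 in number 1 and 225 bp more in number 2. The shared 733 bp were 1 of 10329 stretches in both AC220 lists and in neither DMSO list, of which 10.8% were as long or longer. The peak was weak in AC220 1, where its -log10 q of 1.02 exceeded that of only 0.219% of the list. In AC220 2 its -log10 q was 1.66, above 51.1% of the list, with a deposited fold of 2.18. With peaks of -log10 q of at least 2 alone, it was gone from both lists, and the 10 kb around DLX3 were covered over 0% in DMSO 1, 12.8% in DMSO 2, 0% in AC220 1 and 15.0% in AC220 2. With the longer list of each number, the DMSO list, shortened to match the other, the treatments did not overlap (difference 19.65 percentage points). With the 4 lists cut to the same covered length the shares were 0% in DMSO 1, 12.8% in DMSO 2, 17.5% in AC220 1 and 0% in AC220 2, so the treatments overlapped (difference 2.355 percentage points, exact permutation p = 1).

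The gap that holds the middle of the pair was accordingly shorter with AC220: 49.5 kb in DMSO 1, 48.0 kb in DMSO 2, 42.6 kb in AC220 1 and 41.8 kb in AC220 2. The means were 48.7 kb ± 1.03 for DMSO and 42.2 kb ± 0.566 for AC220 (SD, n = 2; exact two-sided permutation p = 0.333), a difference of -6.50 kb, or -6.83 kb between libraries numbered 1 and -6.17 kb between those numbered 2. The difference exceeded the spread within either treatment. Most of it arose at the upper edge, which lay 4.26 kb above the DLX3 start in DMSO 1 and 3.72 kb above it in DMSO 2, and 1.34 kb below it in AC220 1 and 1.80 kb below it in AC220 2. The upper edge was lower with AC220 by 5.60 kb in number 1 and 5.52 kb in number 2, and the lower edge was higher by 1.23 and 0.655 kb. Of 4613 joint gaps of 30 to 60 kb, 2.67% were shorter with AC220 without overlap of the groups and 3.43% were longer. The gap was chosen as a measure after the peaks had been seen. With peaks of -log10 q of at least 2 alone the difference was 1.85 kb, in the other direction, and with all 4 lists cut to the same covered length it was 19.9 kb in that direction. With the DMSO list of each number shortened to match the AC220 list, the difference was -9.33 kb.

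**Figure D4:**
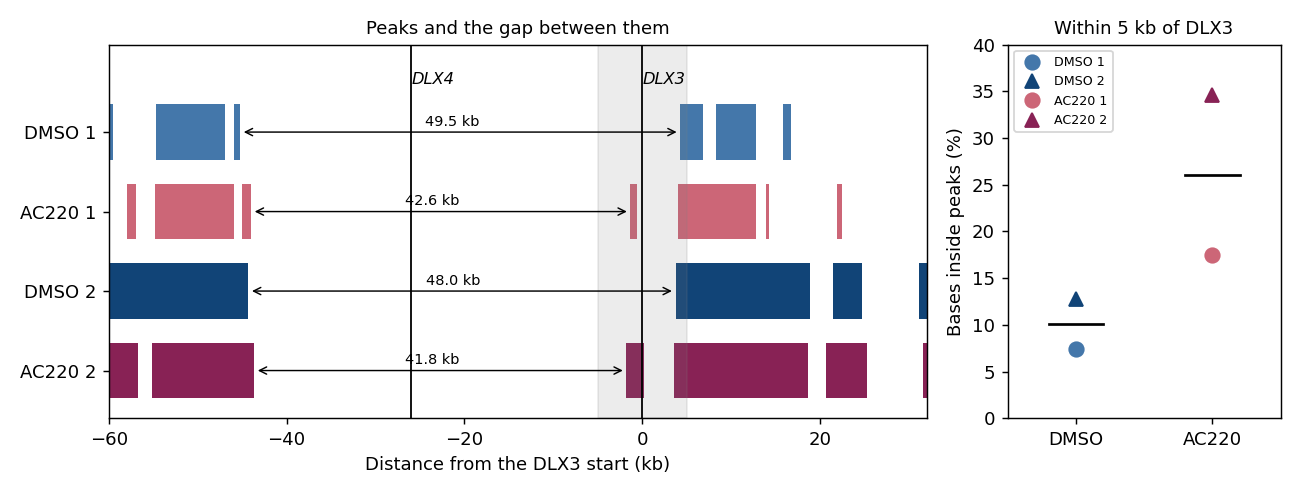
Left, H3K27me3 peaks (bars) by distance in kb from the DLX3 start in the 4 libraries, with arrows across the gap between peaks and grey shading over 5 kb around DLX3; right, percentage of bases inside peaks within 5 kb of DLX3, with a point per library and a line at the mean of each treatment (n = 2). The gap ends below DLX3 in both AC220 libraries and above it in both DMSO libraries, and the AC220 points (17.5% and 34.6%) lie above the DMSO points (7.44% and 12.8%).

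The upper stretch itself began at nearly the same place with both treatments. Setting the small peak aside, its first peak started at 48077257 in DMSO 1, 48076722 in DMSO 2, 48076984 in AC220 1 and 48076497 in AC220 2. That first peak was 2591 bp wide in DMSO 1, 15129 bp in DMSO 2, 8746 bp in AC220 1 and 15073 bp in AC220 2. The domain ran from the lowest to the highest edge of the stretches touching 5 kb around the starts, with gaps of up to 3 kb joined. With the small peak included, it spanned 8.52 kb in DMSO 1, 20.9 kb in DMSO 2, 15.5 kb in AC220 1 and 27.1 kb in AC220 2. In both AC220 libraries it held 2 stretches that were not joined, and the uncovered bases between them were counted. Its width with AC220 relative to DMSO had a log2 ratio of 0.62, against SDs of 0.92 (DMSO) and 0.57 (AC220) on the log2 scale (n = 2; exact permutation p = 0.667). The difference between treatments was smaller than that between DMSO libraries, and without DMSO 1 it was -0.029. With peaks joined over gaps of up to 1 kb only, the log2 ratio was 1.44 (exact permutation p = 0.667). The width was larger with AC220 by 6.997 kb between libraries numbered 1 and by 6.17 kb between those numbered 2, uncovered bases included. The upper stretch itself ended at 48085778 in DMSO 1, 48097635 in DMSO 2, 48087176 in AC220 1 and 48098285 in AC220 2.

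Farther up, in the direction of the laminin receptor gene ITGA3, the strongest peak near this pair lay just beyond the 50 kb window. It ran from 48131180 to 48137815 in DMSO 1, 48130160 to 48138305 in DMSO 2, 48130517 to 48138103 in AC220 1 and 48129752 to 48145582 in AC220 2. Its -log10 q exceeded that of 99.5%, 99.8%, 99.1% and 99.2% of the peaks of its own list. The peak was listed with both treatments and in both numbers.

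Over the whole DLX3-DLX4 window DMSO libraries averaged 40.5% ± 17.6 covered and AC220 libraries 43.6% ± 15.0 (SD, n = 2; exact permutation p = 0.667). The difference was 4.87 percentage points between libraries numbered 1 and 1.25 between those numbered 2, both higher with AC220, whereas 10.1% of 100 kb windows with a peak were higher in both numbers. The pooled difference of 3.06 percentage points was smaller than the SD of either treatment. Its direction turned with peaks of -log10 q of at least 2 (-5.51 percentage points) and where the 4 lists were cut to the same covered length (-5.86). Leaving out DMSO 1 (-9.39) or AC220 2 (-7.58) turned it as well, while leaving out AC220 1 (13.7) or DMSO 2 (15.5) did not. In each case the remaining libraries are unbalanced between the numbers. The cause of the turns was not tested.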

How the data were processed

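H3K27me3 immunoprecipitates of MOLM14 cells were analysed through 1 deposited broad peak list per library, so peaks were not called on pooled samples. The submitters' processing notes name BWA 0.7.10-r789 and MACS2 2.1 but give no settings; the genome build and the use of inputs or spike-in are not given in the sources used here. No peak end exceeded the GRCh37 chromosome lengths of circlize 0.4.16, whose band table was used. The deposited fold is a ratio of signal in the peak to a background, and whether inputs entered that background is not given. The deposited -log10 p and q are the authors' values for each peak. The deposited score is the -log10 q scaled 10-fold and cut to a whole number for nearly all peaks. These values served to describe and filter peaks inside a single list. The lists hold no counts, so depth is unknown and no interval that needs it is given.

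Positions are GRCh37, counted from 1. Covered shares, gaps and joined stretches were computed in Python 3.11.15 (pandas 2.3.3, numpy 2.4.6) and checked on simulated lists. Treatments were compared by an exact permutation test over the 6 assignments of 4 libraries, pairs by exact sign flips. Background windows of 10 and 100 kb tiled chromosomes 1 to 22 and X. RefSeq's gene table is on another build (GRCh38.p14), so it gave gene names and order alone, and other DLX-programme genes were not placed. All 6 members are named whatever their values; members, lists and tests were chosen with earlier results of these data known. Alternatives were peak filters, trimmed lists, other flanks, joining gaps and starts, a block on the replicate number, and leaving out each library. Figures used matplotlib 3.10.9.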

Additional observations from a re-analysis of the deposited data

How the results depend on the processing

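Of 193 recomputed values other than window counts, 89 kept the direction of the reported value, 25 reversed it, 8 moved to 0 and 71 were reported 0 values that stayed at 0; those at DLX5 and DLX6 and within 5 kb of DLX2 and DLX4 did so under every setting run. None of these tests can reach 0.05 with 4 libraries. The mean differences between pairs kept their sign under the settings run for them. Those involving DLX5-DLX6 could not turn, since that pair stayed at 0. They are counted among the 89 values. So are replicate-block values other than 0, which equal the reported ones by construction. DLX1-DLX2 minus DLX5-DLX6 was only 0.313 percentage points with flanks of 25 kb, where AC220 2 alone had a peak at DLX1-DLX2. With peaks of -log10 q of at least 2, the AC220 minus DMSO difference reversed for the DLX3-DLX4 window (-5.51 percentage points), its gap (1.85 kb), and the 50 kb around DLX4 (-7.38) and DLX3 (-0.867). With -log10 q of at least 5, the DLX1-DLX2 and DLX3-DLX4 windows had 0 covered in every library. With all lists trimmed to equal length it reversed for the DLX1-DLX2 window (2.01), the DLX3-DLX4 window (-5.86) and gap (19.9 kb), DLX2 (2.36), DLX4 (-7.17) and DLX3 (-3.52) within 50 kb. With lists trimmed within each number it reversed for the DLX1-DLX2 window (0.765) and DLX2 within 50 kb (0.895). It kept its direction for DLX3 within 5 kb (19.65) and the DLX3-DLX4 gap (-9.33 kb). Flanks of 25 and 100 kb gave 0.626 and 0.623 for the DLX1-DLX2 window. The cause of these changes was not tested.

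Leaving out each library gave -3.53 to 2.04 percentage points for the DLX1-DLX2 window, -9.39 to 15.5 for DLX3-DLX4, -4.13 to 2.39 for DLX2, -6.61 to 13.8 for DLX4 and -7.95 to 15.6 for DLX3 within 50 kb, 7.39 to 24.5 for DLX3 within 5 kb, a log2 ratio of -0.029 to 1.27 for the domain width, and -7.23 to -6.10 kb for the gap. Windows lower with AC220 in both numbers were 32949 (10 kb) and 9096 (100 kb), and 8922 and 5033 with -log10 q of at least 2, and 18169 and 4160 with lists trimmed within each number. Leaving out a library unbalances the numbers between the treatments. No label ties libraries of one number together. Deviations of same-numbered libraries from their treatment means correlated at 0.89 over 100 kb windows with a peak and at 0.59 over 10 kb windows. The lists numbered 2 are longer with both treatments, so this cannot tell whether same-numbered libraries belong together. Since each number has a library of both treatments, the replicate block gives the pooled difference by construction, and its values could not change. They were -0.745 and 3.06 percentage points for the DLX1-DLX2 and DLX3-DLX4 windows. For the DLX3-DLX4 domain width the log2 ratio was 0.62, and for its gap the difference was -6.50 kb (exact sign-flip p = 0.5 each, the smallest 2 pairs allow). Domain widths were not computed for DLX1-DLX2 and DLX5-DLX6, which had no domain in 3 and 4 libraries, nor for DLX3-DLX4 with -log10 q of at least 2 or trimmed lists. Gaps as a measure, and the alternatives run for the DLX3-DLX4 gap, were chosen after seeing the data.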
